A study of Mus musculus with 2 samples.

Results

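The cells described here are dermal fibroblasts (dFBs) of mouse dorsal skin that carry transcripts of at least 1 of Fmo2, F3 and Gdf10, which are genes of Areg fibroblasts. They were chosen by measured values. A cell entered the gate with at least 1 UMI (1 distinct transcript molecule) of Pdgfra, no UMI of Ptprc, Pecam1 or Dpp4, at least 2 UMIs of Fmo2, F3 and Gdf10 together, fewer than 2 of Crabp1, Dkk2 and Prdm1 together and fewer than 2 of Lrrc15 and Col11a1 together. After cells outside 200 to 6000 genes, or above 10% mitochondrial UMIs, had been left out, 19578 cells stayed, of which 1594 entered the gate, 165 in Ctrl and 1429 in AD. Female C57BL/6J mice of 7 weeks were depilated on the back and received, every day for 10 days on an area of 2 cm by 2 cm, either 100% ethanol alone (Ctrl) or 4.5 nmol of MC903 in ethanol per application (AD). MC903 is calcipotriol, an analogue of vitamin D that provokes dermatitis resembling atopic dermatitis (AD), and cells were isolated from skin on day 10. Each condition was profiled in 1 library, and the number of mice behind a library is not given in the sources used here. No test between conditions was therefore possible. The intervals (95%) describe counting error and nothing else.

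Areg stands for adipogenesis regulatory cell, a stromal population originally separated from other fibroblasts of fat by CD142, the tissue factor protein that F3 encodes. Such cells were described as restraining the conversion of neighbouring progenitors into adipocytes, and stromal lineages of skin and fat share much of their progenitor hierarchy. Pdgfra, a receptor for platelet-derived growth factor, is carried by dFBs at large, Dpp4 marks the interstitial progenitors that the gate leaves out, and Crabp1, Dkk2 and Prdm1 mark papillary dFBs near the epidermis and the follicles. Fmo2 encodes a flavin monooxygenase, Gdf10 a secreted member of the BMP family and Mgp a secreted inhibitor of calcification.

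Sequencing yielded 125184653 UMIs over 12598 barcodes for Ctrl and 76106062 UMIs over 8778 barcodes for AD, of which 11399 and 8179 cells were kept. The gated cells had a median of 6973 UMIs in Ctrl and 7227 in AD, and their summed depth was 1442443 and 12181489 UMIs. They made up 1.45% of the kept Ctrl cells (1.24 to 1.68, exact Clopper-Pearson) and 17.5% of the kept AD cells (16.7 to 18.3). Among all Pdgfra cells without Ptprc and Pecam1, the shares were 3.08% of 5353 and 29.2% of 4894. The libraries shared 35 barcodes, none of them gated. With all other conditions met, 112 Ctrl and 404 AD cells lay just outside the gate with 1 UMI of its genes, and 50 and 273 lay just inside with 2 UMIs. Among these edge cells, after the cells with keratin or adipocyte transcripts defined below had been set aside, Mgp stood at 545 CPM just outside and 226 CPM just inside in Ctrl, and at 297 and 221 CPM in AD, where CPM is the summed UMIs of a gene on a scale on which all UMIs of the same cells sum to 1e+06. Other Areg markers differed the other way across this edge in Ctrl, with Myoc at 138 and 683 CPM, Apoe at 542 and 860 CPM and Cygb at 445 and 619 CPM, and in AD they were at 34.1 and 58.9, 770 and 988, and 255 and 248 CPM.

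The gate genes did not carry the selection equally in the 2 libraries. A Fmo2 UMI was found in 66.7% of the gated Ctrl cells (58.9 to 73.8) and in 92.1% of the gated AD cells (90.6 to 93.4). F3 was found in 63.6% (55.8 to 71.0) and 59.3% (56.7 to 61.8), and Gdf10 in 44.2% (36.5 to 52.2) and 7.84% (6.50 to 9.35). All 3 genes occurred together in 17.6% (Ctrl) and 5.18% (AD). With at least 2 UMIs asked of Fmo2 alone, 83 Ctrl and 1176 AD cells passed, with F3 alone 70 and 505, and with Gdf10 alone 59 and 62. The large share in AD thus rested on Fmo2 and F3 and was not seen with Gdf10. Fmo2 was also higher in AD in Pdgfra cells outside the gate, from 76.5 to 482 CPM in Dpp4 cells and from 4.31 to 346 CPM in papillary cells. F3 went from 24.5 to 99.6 CPM and from 4.58 to 46.8 CPM in the same cells, while Gdf10 went from 27.5 to 1.75 CPM and from 78.3 to 2.84 CPM. The pool open to the gate also differed. Dpp4 cells, which the gate leaves out, were 55.4% of the Pdgfra cells in Ctrl and 32.5% in AD. Cells that met all other conditions but had no UMI of the gate genes numbered 893 in Ctrl and 773 in AD. More cells of an Areg type, more Fmo2 in other dFBs and fewer cells removed by the other conditions cannot be told apart from this share.

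**Figure D1:**
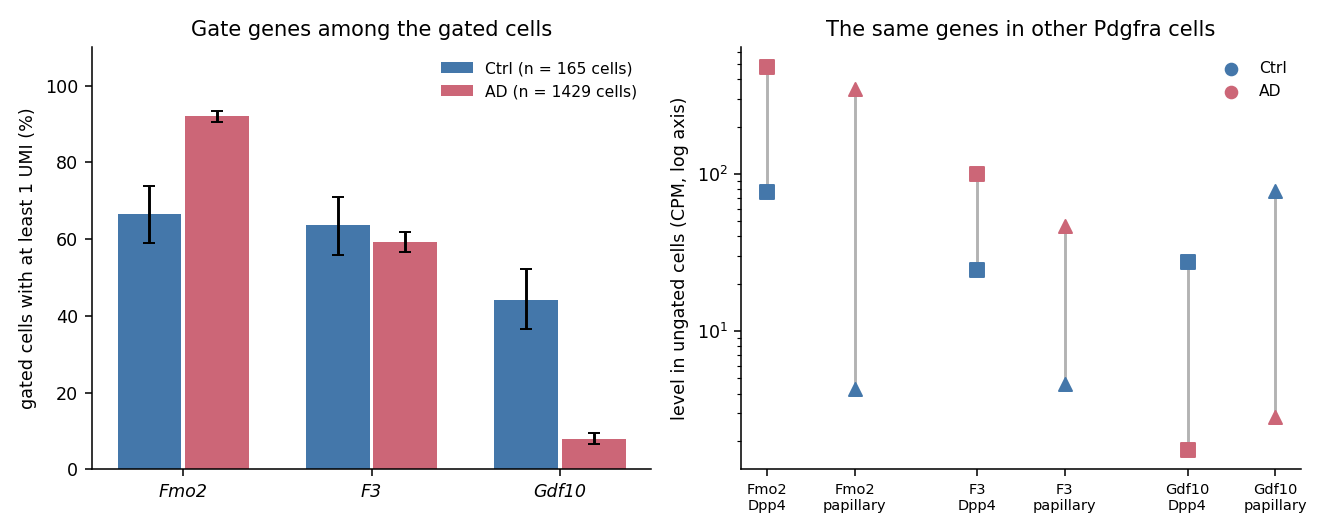
Left, bars give the percentage of gated cells with at least 1 UMI of each gate gene in Ctrl and AD, with 95% Clopper-Pearson intervals. Right, levels (CPM, log axis) of the same genes in Dpp4 cells (squares) and papillary cells (triangles), where Fmo2 and F3 were higher in AD and Gdf10 was lower.

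Transcripts of other cell types were present in part of the gate, and unequally. At least 5 UMIs of the keratins Krt5, Krt14, Krt1 and Krt10 together were found in 25 gated Ctrl cells (15.2%) and in 12 gated AD cells (0.840%). The 25 Ctrl cells had a median of 17132 UMIs and a median of 1 Pdgfra UMI, held 31.1% of all UMIs of the gated Ctrl cells, and 20 of them had a F3 UMI. In 11 Ctrl and 4 AD cells the keratin UMIs outnumbered those of the dFB markers Col1a1, Col1a2, Col3a1, Dcn and Lum. Summed over 14 keratinocyte markers, the level was 7281 CPM in the Ctrl gate and 165 CPM in the AD gate, with Krt10 (3106 CPM) leading in Ctrl. Conversely, at least 5 UMIs of the adipocyte genes Adipoq, Plin1, Cidec and Car3 were found in 1 Ctrl and 14 AD cells. The ratios were therefore also computed without these cells, which left 139 Ctrl cells with 979667 UMIs and 1403 AD cells with 11655345 UMIs. The cut of 5 UMIs was chosen after seeing the data. In the cells left, keratinocyte markers summed to 240 and 46.3 CPM, macrophage markers to 216 and 56.6 CPM, endothelial markers to 101 and 56.6 CPM, mural markers to 218 and 33.7 CPM, and markers of melanocytes and Schwann cells to 99.0 and 14.5 CPM. T cell markers summed to 1.02 and 3.43 CPM, with Cd3e, Cd3d and Trac at 0 in Ctrl, skeletal muscle markers to 30.6 and 7.21 CPM, mast cell markers to 5.10 and 9.01 CPM and haemoglobin genes with the rest of the erythroid list to 39.8 and 48.8 CPM. The part of these cell types in the ratios was not tested. Levels below are those of the 139 and 1403 cells unless stated, with log2 ratios of AD over Ctrl (1 CPM added) and their intervals in parentheses. The ratio over all gated cells follows where it falls on the other side of the fold counted. Shares of gated cells with a UMI of a gene are those of all gated cells, with the keratin and adipocyte cells included.

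**Figure D2:**
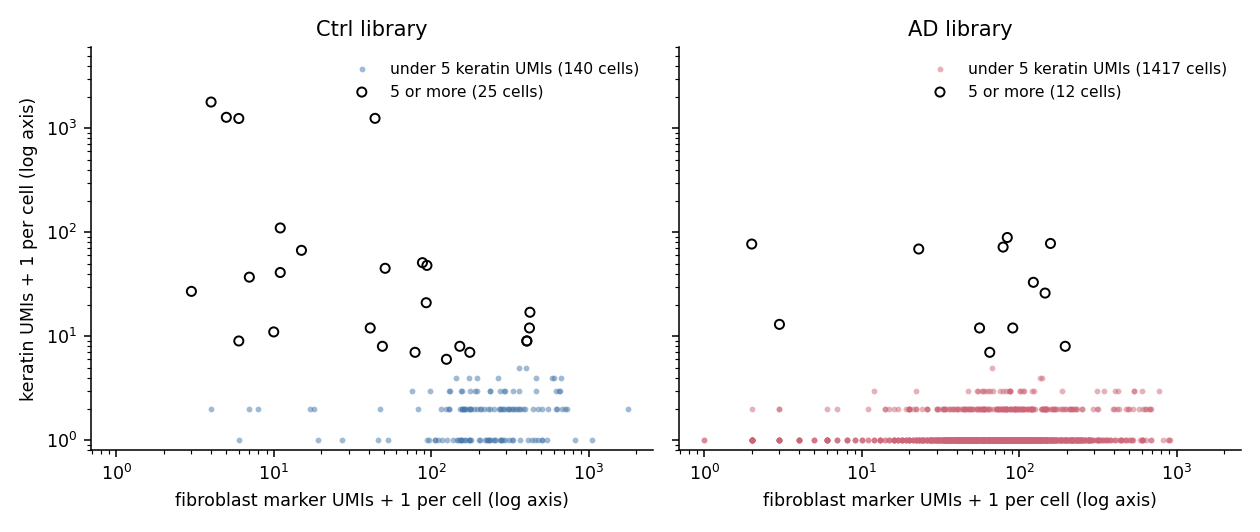
Each point is 1 gated cell, with its UMIs of 5 dFB markers on the x axis and of 4 keratins on the y axis, 1 added to each, on log axes. Open circles are the 25 Ctrl and 12 AD cells with at least 5 keratin UMIs, which reach up to 1787 keratin UMIs per cell in Ctrl and 88 in AD.

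The label was then checked with the 8 Areg markers outside the gate. Mgp (chromosome 6, 136872435 to 136875823, GRCm38) stood at 900 CPM in the Ctrl gate against 74.6 CPM in other Ctrl Pdgfra cells (log2 ratio 3.58, 3.48 to 3.70). The AD values were 1182 and 256 CPM (2.20, 2.16 to 2.25). In AD the Mgp excess lay in the 921 gated cells with 4 or more gate UMIs, at 1626 CPM. The 482 with 2 or 3 were at 260 CPM, near the other Pdgfra cells. In Ctrl, Mgp was at 1272 CPM in the 81 cells with 4 or more and at 361 CPM in the 58 with 2 or 3. Myoc, the myocilin gene, was at 605 against 121 CPM in Ctrl (2.31, 2.19 to 2.44), but at 71.2 against 44.7 CPM in AD (0.66, 0.54 to 0.80, and 1.35 with the gate applied after thinning each cell to 3000 UMIs). Cygb, which encodes the haem protein cytoglobin, was at 1081 against 203 CPM in Ctrl and at 476 against 250 CPM in AD. Meox2, a homeobox gene, was at 66.3 against 10.8 CPM in Ctrl, and in AD it was at 11.5 CPM in gated cells and 11.9 CPM in the others. Vit was at 80.6 against 27.2 CPM in Ctrl (1.54, 1.22 to 1.90) and, at a low level, at 14.8 against 6.17 CPM in AD (1.14, 0.94 to 1.58). Apoe, the lipid carrier apolipoprotein E, was at 1308 against 418 CPM in Ctrl and at 877 against 603 CPM in AD. Clec11a and Abcg1 were within a log2 ratio of 1 in both libraries, at 61.2 against 44.0 CPM and 14.3 against 16.1 CPM in Ctrl, and at 1.80 against 2.98 CPM and 25.3 against 25.3 CPM in AD. Over the whole list, 6 of 8 markers were higher than in other dFBs by a log2 ratio of at least 1 in Ctrl and 2 of 8, Mgp and Vit, in AD. The thinned gate was run for Mgp and Myoc of these markers. They are called gated cells here, after the rule that chose them.

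A small set of genes outside the gate marked the gated cells in both libraries. Of 2652 genes with at least 50 CPM in the gated cells of both, 8 were higher than in other Pdgfra cells by a log2 ratio of at least 1 in Ctrl and in AD, among them Mgp, Hmcn2, Cxcl14, Prg4, Zim1, Fzd4 and Emb. Cxcl14, a chemokine of resting skin, was at 423 against 63.9 CPM in Ctrl and at 278 against 90.2 CPM in AD. Taken by library, 73 genes were higher by that amount in Ctrl and 11 in AD. Of 2779 genes measured in the other Pdgfra cells of both libraries, 15 were lower in gated cells by a log2 ratio of at least 1 in both, with 62 lower in Ctrl and 23 in AD taken by library. Among them were Wif1, a secreted WNT inhibitor (52.1 against 229 CPM in Ctrl, 1.29 against 83.6 in AD), Apcdd1, Enpp2, Ednrb, Lepr and S100a4, all of which were higher in papillary cells than in gated or Dpp4 cells of both libraries, and the haemoglobin genes Hba-a1, Hba-a2 and Hbb-bs. The gate leaves papillary cells out and they stand among the other Pdgfra cells. Lower levels of papillary genes in gated cells therefore follow at least in part from the rule.

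Between libraries, 3864 genes with at least 50 CPM in either were measured in all gated cells. Of these, 409 were higher in AD by a log2 ratio of at least 1 (10.6%) and 450 were lower by as much (11.6%), with a median log2 ratio of 0.02. Without the keratin and adipocyte cells, 3752 genes were measured, 383 were higher (10.2%), 427 were lower (11.4%) and the median was 0.08. Of the lower genes 269 were under 50 CPM in AD, and of the higher genes 198 were under 50 CPM in Ctrl, so these passed the limit only through the library where they were high, and the limit fixed their direction. The same holds in the lists below for every counted gene under 50 CPM in the library where it was lower, also where this is not repeated. The calls were not the same genes throughout, since 292 higher and 263 lower genes were shared. The 12 lowest over all gated cells were Krt77, Krt1, Calm4, Krtdap, Krt10, Dsg1a, Fam25c, Mt4, Dapl1, Gm94, Ube2c and Ly6g6c, genes of the differentiating epidermis apart from the mitotic Ube2c, and their Ctrl UMIs came almost wholly from the keratin cells. Krt1, for example, had 1300 Ctrl UMIs and 14 once those cells were left out. Krt1 and Krt10 are among the keratins that define these cells, so for both genes the drop follows from the cut. All 13 gated Ctrl cells with at least 5 UMIs of the cycling genes Mki67, Top2a, Cenpf and Ube2c were keratin cells.

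The 12 highest over all gated cells were Saa3, Cfd, Cyp24a1, Ctla2a, the agouti gene a, Hp, Cdo1, Cxcl13, Thbs1, Prg4, Gdf15 and Serpina3n. Saa3 (ENSMUSG00000040026, chromosome 7, 46711998 to 46715700), an acute-phase apolipoprotein, had no UMI in the Ctrl cells and 445 CPM in AD, at least 145-fold above the level that 3 counts over the Ctrl cells would give. Cyp24a1 (ENSMUSG00000038567, chromosome 2, 170482708 to 170497145), the enzyme that inactivates vitamin D and a classical target of its receptor, had no UMI in Ctrl and 92.1 CPM in AD, at least 30.1-fold above that floor, and stood at 94.2 CPM in other Pdgfra cells of AD. Both were uneven, since a UMI was found in 11.3% and 9.66% of the gated AD cells, and 10 cells held 47.5% and 52.6% of the UMIs. Saa3 and Cyp24a1 UMIs were also found in 4.38% and 6.23% of AD immune cells, at a median of 5461 UMIs per immune cell, or 3703 in Ctrl. Cxcl13, which attracts B cells, went from 150 to 2087 CPM (3.79, 3.56 to 4.04) and was detected in 17.0% of Ctrl and 52.8% of AD gated cells, against 16.3% of AD immune cells. Serpina3n, a serine protease inhibitor, went from 158 to 1451 CPM (3.19, 2.97 to 3.43) and from 41.2% to 84.9% of cells, or from 25.5% to 77.0% with every cell thinned to 3000 UMIs, which left out 8 Ctrl and 105 AD cells. Its share of immune cells was 4.84% and 10.5%. Thbs1, thrombospondin 1, went from 215 to 2523 CPM (3.54, 3.35 to 3.75). Prg4, the lubricin of joints and fascia, went from 61.2 to 594 CPM (3.26, 2.91 to 3.67). Agouti, an antagonist of the melanocortin receptor, had 2 UMIs over all 165 gated Ctrl cells and was detected in 22.7% of the gated AD cells against 4.38% of AD immune cells. Cfd, the protease adipsin, and Hp, haptoglobin, are both abundant in adipocytes, and 10 cells held 90.8% and 91.2% of their UMIs in the AD gate. Without the keratin and adipocyte cells, 214 of 3834 Cfd UMIs and 524 of 4988 Hp UMIs were left in AD. For Ctla2a, Gdf15, Hp and Cfd, the share of AD immune cells with a UMI (41.9%, 19.5%, 19.0% and 9.11%) was above that of gated AD cells (11.9%, 17.4%, 13.0% and 8.82%), so their detection in single gated cells is not read as expression. Each of these AD shares rests on cells with a median of 7227 UMIs in the gate.

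For the highest genes, promoters were read from RefSeq on GRCm38.p6, in which 7 of the 12 genes were found, with 9 starts. The 250 bases before the start are shown for the 3 of them whose levels are described above and whose windows hold matches to motifs of inflammatory factors, so that the letters behind the counts below can be seen. Capitals mark every match on either strand to the interferon element (GAAA, 2 bases of any kind, GAAA), a STAT site (TTCNNNGAA), the wider spacing favoured by STAT6 (TTC, 4 bases of any kind, GAA), an NF-kB site (GGG, 2 bases of any kind, TTTCC), an AP-1 site (TGANTCA), a C/EBP site (TTNNGNAA), a TATA box (TATAAA) and a hypoxia site (ACGTG), where N is any base and matches to different motifs may overlap.
Saa3, chr7:46715677-46715926, minus strand: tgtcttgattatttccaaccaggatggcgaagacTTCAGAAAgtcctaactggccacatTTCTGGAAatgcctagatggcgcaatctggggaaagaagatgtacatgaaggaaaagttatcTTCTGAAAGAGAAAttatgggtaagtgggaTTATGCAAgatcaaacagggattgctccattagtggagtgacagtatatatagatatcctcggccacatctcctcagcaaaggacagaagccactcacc
Serpina3n, chr12:104406458-104406707, plus strand: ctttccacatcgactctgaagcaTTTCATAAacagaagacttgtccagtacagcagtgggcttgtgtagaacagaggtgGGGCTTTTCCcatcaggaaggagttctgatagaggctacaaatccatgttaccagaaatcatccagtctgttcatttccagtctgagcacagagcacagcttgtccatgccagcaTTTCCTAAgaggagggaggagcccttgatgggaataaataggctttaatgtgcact
Cxcl13, chr5:95956689-95956938, plus strand: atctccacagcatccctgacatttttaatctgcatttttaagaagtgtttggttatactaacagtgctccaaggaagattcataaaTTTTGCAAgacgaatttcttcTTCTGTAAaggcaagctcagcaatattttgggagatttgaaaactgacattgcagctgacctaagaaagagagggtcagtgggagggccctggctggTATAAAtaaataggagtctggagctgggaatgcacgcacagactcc
The Saa3 window holds 4 C/EBP matches, one of which overlaps its interferon element match 125 bases before the start, and the Serpina3n window holds 1 NF-kB match 171 bases before the start and 2 C/EBP matches. The Cxcl13 window holds 2 C/EBP matches and a TATA box 46 bases before the start. Over all 32851 promoters of the table, a C/EBP match was found in 36.8%, an interferon element in 2.98%, an NF-kB site in 1.41%, a STAT site in 7.02%, a STAT6 site in 5.85%, an AP-1 site in 6.75%, a TATA box in 12.4% and a hypoxia site in 16.6%. Among the 9 promoters of the highest genes, 6 held a C/EBP match, 1 an interferon element, 1 an NF-kB site, 2 a STAT site, 2 an AP-1 site, 3 a TATA box, 1 a hypoxia site and 0 a STAT6 site, and both promoters of Ctla2a share most of their bases. A match is a description of letters only.

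Chemokines were among the signalling genes with the highest ratios, in the gate and outside it. The CC list had a median log2 ratio of 0.60 in the gate and 1.30 in other Pdgfra cells, and the CXC list 1.09 and 1.02. Of 5 measured CC chemokines, 2 were higher in AD by the fold used and 1 was lower, with 3 higher over all gated cells. The lower gene was Ccl4, a chemokine of activated leukocytes, at -1.50, and its ratio over all gated cells was 1.10 once the 9 Ctrl cells called doublets were left out. Ccl2, a ligand of CCR2 on monocytes and T cells, went from 209 to 1749 CPM (3.06, 2.86 to 3.27), and its share of cells went from 27.9% to 69.4% against 29.3% of AD immune cells. Its level in other Pdgfra cells went from 481 to 1837 CPM, so in Ctrl it was lower in the gate than outside. Ccl7, from the same cluster of genes, went from 561 to 2417 CPM (2.10, 1.98 to 2.23). Ccl11, the eosinophil chemokine eotaxin, was at 339 and 514 CPM (0.60, 0.44 to 0.76, and 1.06 over all gated cells), and Ccl19, which guides cells that carry CCR7, at 198 and 105 CPM (-0.91, -1.14 to -0.69). Among 6 CXC chemokines, 3 were higher and none was lower. Besides Cxcl13 these were the neutrophil chemokines Cxcl2, from 34.7 to 196 CPM (2.46, 2.01 to 3.03), and Cxcl1, from 468 to 1875 CPM (2.00, 1.87 to 2.14). Cxcl12, which retains leukocytes and progenitors through CXCR4, was the most abundant of these in Ctrl, at 1247 CPM, and was at 889 CPM in AD (-0.49, -0.57 to -0.40), whereas in other Pdgfra cells it was at 343 and 483 CPM. Cxcl10, an interferon-induced ligand of CXCR3, was at 106 and 120 CPM (0.17, -0.12 to 0.47).

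Cytokine genes and part of the type 2 response genes were also higher. These shifts were not particular to the gate. Median log2 ratios in the gate and in other Pdgfra cells were 1.20 and 1.29 for the cytokine list and 0.95 and 0.80 for the type 2 list. They were -1.43 and -1.27 for the interferon list and -0.42 and -0.33 for the MHC class I list. The complement and acute-phase list differed more, at -1.07 and -0.37. The cytokines Lif, Csf1 and Il6 were past the fold, at 16.3 and 69.3 CPM, 338 and 806 CPM, and 367 and 809 CPM, with log2 ratios of 2.02, 1.25 and 1.14, among 4 measured genes of their list, though Csf1 was at 0.99 with the thinned gate and Il6 was under the fold in the cells with at least 2 UMIs of Fmo2 (0.85) or F3 (0.73). The receptor chains Il4ra and Il13ra1, which together bind IL4 and IL13, went from 119 to 262 CPM (1.13, 0.87 to 1.41) and from 37.8 to 84.2 CPM (1.14, 0.68 to 1.67), the latter at 0.68 with the thinned gate. In other Pdgfra cells Il13ra1 was at 75.1 and 76.0 CPM. The feedback genes Cish and Socs3 had log2 ratios of 1.93 (1.36 to 2.68) and 1.09 (1.01 to 1.17). Postn, the matrix protein periostin that IL13 can induce in fibroblasts, went the other way, from 709 to 52.8 CPM (-3.72, -3.91 to -3.59, and -3.13 over all gated cells). In all, 4 of 8 measured type 2 genes were higher and 1 was lower, with 5 higher over all gated cells. Of the 4 higher genes, 2 were under 50 CPM in Ctrl, Il13ra1 among them, so that the limit fixed their direction. Tslp and Il33, alarmins of the epithelium, were under 50 CPM in the gated cells of both libraries. Of 13 measured interferon-response genes, none was higher and 7 were lower, with 2 lower of 7 measured over all gated cells. All 7 were under 50 CPM in AD and so were measured through their Ctrl level alone, which fixes the direction of this count. Ifi27l2a went from 604 to 41.4 CPM (-3.83, and -2.15 over all gated cells), Bst2, which tethers budding virions, from 203 to 32.3 CPM (-2.62, -2.91 to -2.40) and Isg15 from 69.4 to 7.81 CPM (-3.00, -3.62 to -2.68). The transcription factor genes Irf1 and Stat2 and the antiviral Ifitm3 had log2 ratios of -0.15, -0.59 and -0.32. Of 7 measured genes of antigen presentation by MHC class I, 1 was higher and 1 lower, and H2-K1, H2-D1 and B2m had log2 ratios of -0.42, -0.16 and -0.61. Of 9 measured complement and acute-phase genes, 5 were lower, namely C3, C1s1, C1ra, Cfb and Serping1 (-1.12, -1.48, -1.24, -1.61 and -1.07), and Saa3 was higher. Of the 5, 1 was under 50 CPM in AD, and Saa3 was under it in Ctrl, so that the limit fixed their direction. Over all gated cells 3 of 10 were higher and 1 was lower, with C3 at -0.61 and C1ra at -0.80.

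**Figure D3:**
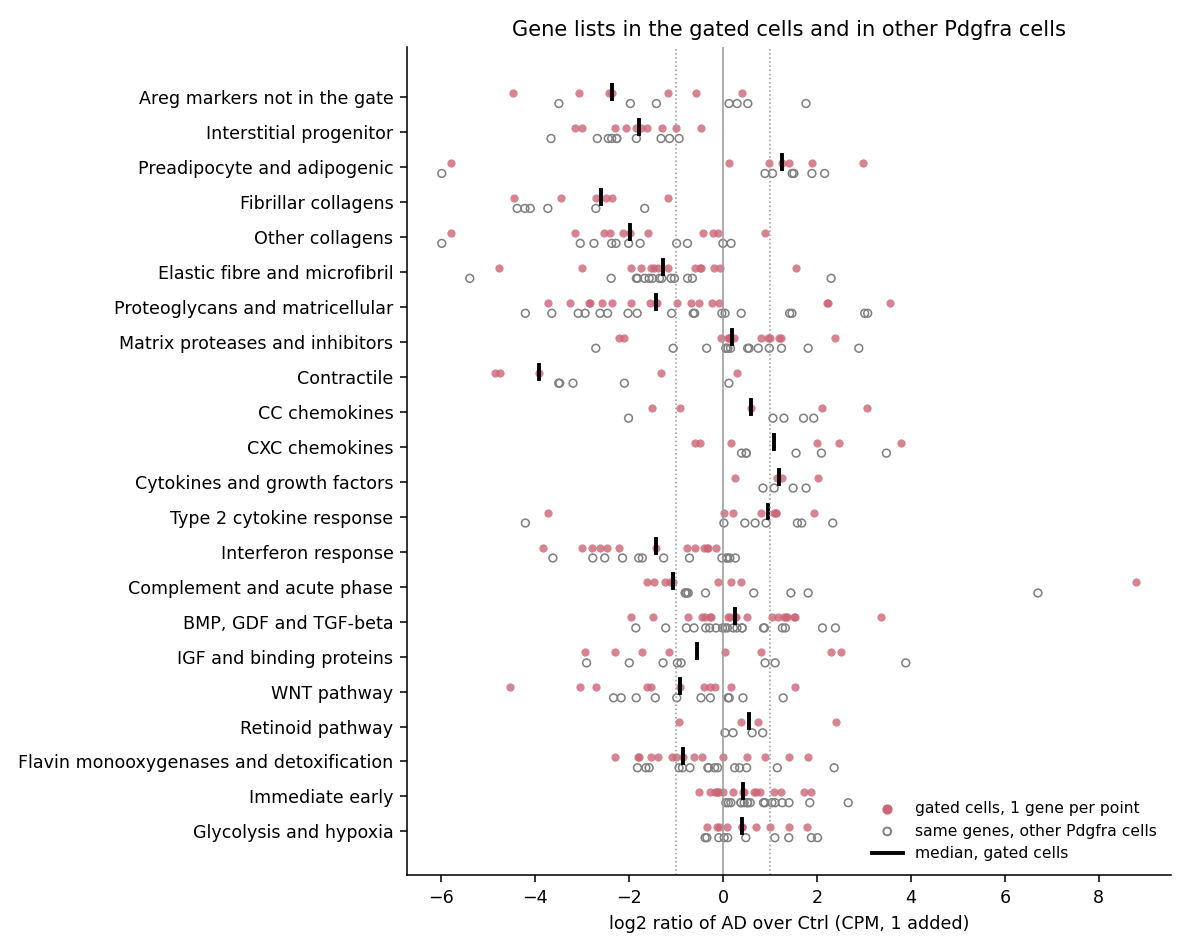
Each filled point is the log2 ratio of AD over Ctrl of 1 measured gene in the gated cells without keratin and adipocyte cells, open points are the same genes in other Pdgfra cells, and black bars are medians. All 6 fibrillar collagens lie left of -1, the chemokines reach 3.79 with Cxcl13, and the point furthest right is Saa3, which had no Ctrl UMI, so that its place depends on the added CPM.

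Collagen and other structural matrix genes were mostly lower in AD. All 6 measured fibrillar collagens were lower, with a median log2 ratio of -2.60 against 0.08 for all measured genes, and over all gated cells 5 of 6 were lower. Of the 6, 1 was under 50 CPM in AD, so that the limit fixed its direction. Col1a1 and Col1a2, the chains of type I collagen, went from 6156 to 942 CPM (-2.71, -2.75 to -2.66) and from 9116 to 1626 CPM (-2.49, -2.52 to -2.45), and Col3a1 from 8081 to 735 CPM (-3.46, -3.50 to -3.42). The same genes differed by more in other Pdgfra cells, with log2 ratios of -4.11, -3.73 and -4.22. Of 11 other collagens, 7 were lower and none higher, with Col12a1 at 0.90, or 1.05 over all gated cells. Of the 7, 3 were under 50 CPM in AD, so that the limit fixed their direction. The lowest was Col15a1, a basement membrane collagen, from 404 to 6.26 CPM, whose share of gated cells went from 66.1% to 3.57%. The basement membrane chains Col4a1 and Col4a2 were at -0.22 and -0.10. Of 14 elastic fibre genes, 8 were lower, or 6 over all gated cells, among them Eln, the gene of elastin, from 576 to 71.0 CPM (-3.00, -3.18 to -2.86), and Mfap4, from 427 to 14.6 CPM. Of the 8, 3 were under 50 CPM in AD, Mfap4 among them, so that the limit fixed their direction. Lox, whose enzyme crosslinks collagen and elastin, was higher, from 258 to 756 CPM (1.55, 1.37 to 1.73). Of 18 proteoglycan and matricellular genes, 10 were lower and 3 higher. Lum, Fn1 and Sparc had log2 ratios of -2.83, -2.87 and -2.57, whereas Dcn, the most abundant of the list, went from 14863 to 9262 CPM (-0.68, -0.71 to -0.66). The 3 higher genes were Thbs1, Thbs2 (2.24, 2.05 to 2.45) and Tnc (2.22, 1.73 to 2.84), of which Tnc was found in 8.48% and 8.19% of the gated cells, and 10 AD cells held 51.4% of its UMIs. With the thinned gate Tnc was at 0.90. Among 14 matrix proteases and inhibitors, Mmp11, Mmp2 and Adamts4 were higher (2.38, 1.24 and 1.19) and Timp3 and Mmp23 lower (-2.21 and -2.12), with 6 higher and 1 lower of 13 over all gated cells.

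**Figure D4:**
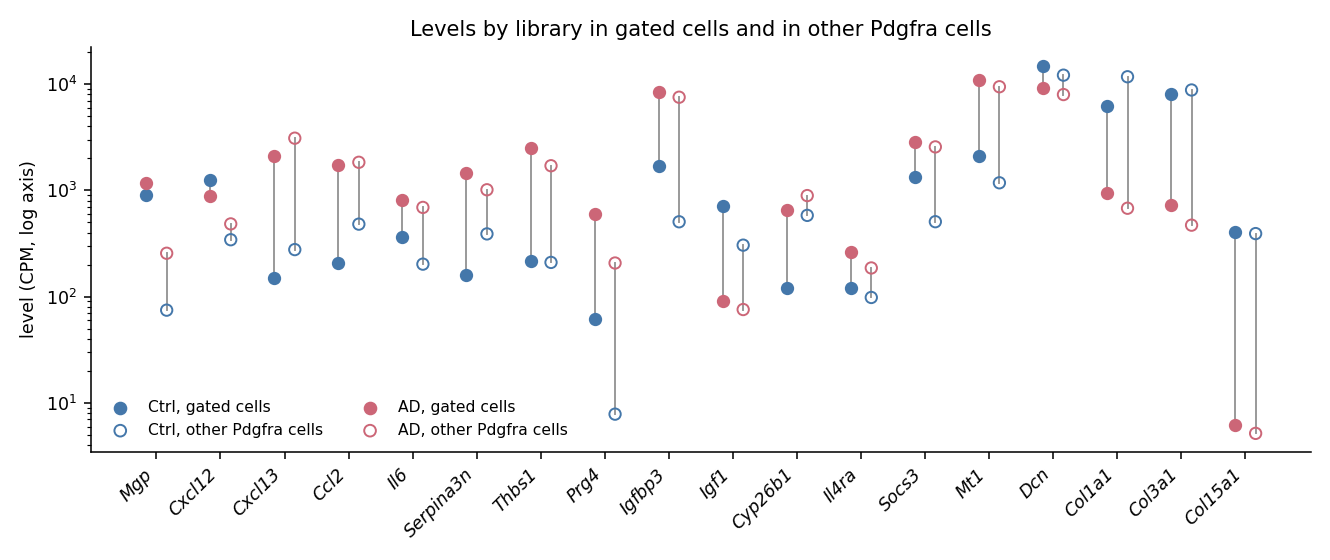
Levels (CPM, log axis) of 18 genes in gated cells (filled) and other Pdgfra cells (open), in Ctrl (blue) and AD (red), joined by a line. Col1a1, Col3a1 and Col15a1 were lower in AD in both kinds of cell, and Mgp and Cxcl12 were higher in gated cells than in other Pdgfra cells of either library.

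The other fibroblast programmes moved with the matrix in part. Of 7 measured Areg markers outside the gate, none was higher and 5 were lower, while over all gated cells 2 of 5 measured were lower. Of the 5, Clec11a, Meox2 and Vit were under 50 CPM in AD, so that the limit fixed their direction. Besides Myoc (-3.07, -3.24 to -2.93), these were Clec11a, from 61.2 to 1.80 CPM, Meox2 and Vit at -2.43 and -2.37, and Cygb at -1.18, or -0.74 over all gated cells. Mgp was at 0.39 (0.29 to 0.49) and Apoe at -0.58 (-0.66 to -0.49), the latter 0.08 over all gated cells. Of 10 measured genes of interstitial progenitors, 8 were lower, with a median of -1.80, among them Pi16 (-3.00, -3.20 to -2.84) and Cd34 (-1.85, -1.99 to -1.73). The same list had a median of -2.27 in other Pdgfra cells, so the shift was not particular to the gate. Its genes Col14a1 and Mfap5 are also counted in the matrix lists above. Of 7 genes of preadipocytes and fat formation, 4 were higher, namely the lipid carrier Fabp4 (2.98), the droplet coat gene Plin2 (1.89), Cebpb (1.41) and Icam1 (1.25), 1 was lower (Col15a1), Cebpd was at 0.97, or 1.44 over all gated cells, and Lpl, the lipoprotein lipase, was at 1248 and 1370 CPM. The median of this list was 1.25 in the gate and 1.47 in other Pdgfra cells. Adipoq and Plin1, the defining adipocyte genes, had 0 UMIs in Ctrl and 10 and 0 in AD in the cells left, by the way these cells were chosen. Contractile genes were lower in 4 of 5, of which 3 were under 50 CPM in AD, with Acta2, smooth muscle actin, from 96.0 to 5.41 CPM, or -0.31 over all gated cells once the called doublets were left out. Myh11, the smooth muscle myosin, went from 118 to 2.66 CPM, but it was detected in 3.03% of the gated Ctrl cells, its ratio was 0.50 over all gated cells without the called doublets, and Ctrl mural markers stood at 218 CPM as given above. Of 4 measured papillary and follicle genes 3 were lower, all under 50 CPM in AD, of 2 tendon and fascia genes Prg4 was higher and Thbs4 lower (-3.77), and no nerve sheath fibroblast gene was measured. Of 7 coagulation genes, Procr was higher (1.08) and Serpinf1 lower (-2.37), and Procr was under 50 CPM in Ctrl, so that the limit fixed its direction. Among markers of other cell types, Krt10, Cd74 of macrophages, and Abcc9 and Myh11 of mural cells were measured (-2.85, -3.41, -1.91 and -5.03), all through their Ctrl level alone, which fixed their direction.

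Growth factor genes went in both directions. In the IGF system, Igfbp3, the main carrier of IGF, went from 1699 to 8366 CPM (2.30, 2.23 to 2.37) and Pappa2, a protease of IGF binding proteins, from 15.3 to 92.4 CPM, whereas Igf1 went from 716 to 91.7 CPM (-2.95, -3.10 to -2.82) and Igfbp4 and Igfbp6 were at -2.30 and -1.72. Of 20 measured genes of the BMP, GDF and TGF-beta system, 8 were higher and 2 lower, against 7 and 1 over all gated cells. The limit fixed the direction of 3 of the 8, which were under 50 CPM in Ctrl, and of 1 of the 2, which was under 50 CPM in AD. Gdf15, a stress-induced member of the family, went from 11.2 to 125 CPM (3.37, 2.63 to 4.48), though its UMIs were found in a higher share of AD immune cells than of gated AD cells, as given above, Id3, a target of BMP signals, from 885 to 2283 CPM (1.37, 1.27 to 1.47) and Smad7, an inhibitor of TGF-beta signals, went from 93.9 to 268 CPM. Tgfb2 went from 74.5 to 216 CPM in the gate, while other Pdgfra cells had 203 and 209 CPM. Of 11 WNT genes, 5 were lower, 4 of them under 50 CPM in AD, among them the secreted antagonists Sfrp4, Sfrp2 and Wif1 (-3.05, -2.72 and -4.54), and Wnt11 was higher (1.53). Wif1 rests on 51 Ctrl and 15 AD UMIs. Cyp26b1, which degrades retinoic acid, went from 121 to 648 CPM (2.41, 2.15 to 2.69), against 581 and 893 CPM in other Pdgfra cells. It was the 1 higher gene of 4 measured in the retinoid list, and Aldh1a1, which makes retinoic acid, was at 0.74, or 1.12 over all gated cells. The vitamin D list had 2 measured genes, Cyp24a1 and the galectin gene Lgals9, which was lower (-1.34). The metallothioneins Mt1 and Mt2, which bind zinc, went from 2094 to 11014 CPM (2.39, 2.33 to 2.46) and from 1133 to 5019 CPM (2.15, 2.06 to 2.23), and Slc39a14, a zinc importer, was at 3.46 (2.96 to 4.11). The metallothionein list had a median of 2.27 in the gate and 2.59 in other Pdgfra cells. Of 15 detoxification genes, 6 were lower, 4 of them under 50 CPM in AD, and 2 higher, against 3 and 3 of 14 over all gated cells, with Ephx1 at -2.31, Sod3 at -1.78, Hmox1 at 1.80 and Cyp1b1 at 1.40. Bnip3, Adm and Hk2 were the 3 higher of 10 genes of glycolysis and hypoxia. Of 17 immediate early genes, 4 were higher, namely Ier3, Myc, Fosl2 and Nr4a1 (0.77 for the last over all gated cells), whereas Fos and Jun were at 0.44 and -0.27. None of 12 heat shock genes was higher, and Dnajb1 was lower (-1.79). Of 3 cell cycle genes measured, the cell cycle inhibitor gene Cdkn1a was higher (1.27), Pcna was at 0.96, and 5 cycling genes lower over all gated cells were under 50 CPM in both libraries without the keratin and adipocyte cells. With the gate applied after thinning, 144 of 162 named genes past the fold over all gated cells stayed past it in the same direction and 18 did not, among them Cyp26b1 (0.67), Pappa2 (0.11) and Hk2 (0.92) besides those given above.

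The gated cells were not alike within a library. Grouped by which gate gene reached 2 UMIs, there were 78 Ctrl and 1156 AD cells by Fmo2, 53 and 496 by F3, and 55 and 61 by Gdf10, and the groups overlap, since 27 of the 55 Ctrl and 52 of the 61 AD Gdf10 cells were also Fmo2 cells. In Gdf10 cells the level of Mgp was 889 CPM for Ctrl against 8514 CPM for AD, but it was at 1296 and 1411 CPM in Fmo2 cells and at 1267 and 1590 CPM in F3 cells. The Gdf10 cells made up 4.35% of the gated AD cells and held 32.1% of their Mgp UMIs. One AD cell held 2070 of these 4427 UMIs, and the median per Gdf10 cell was 20 Mgp UMIs in AD and 1 in Ctrl. Collagen was lower in AD in all 3 groups, with Col1a1 at -2.88, -2.64 and -1.71 and Col15a1 at -5.28, -5.42 and -3.57 by Fmo2, F3 and Gdf10. Chemokines differed between them, since Ccl2 was at 3.24, 3.61 and 1.17 and Ccl7 at 2.19, 3.02 and 0.11, while Serpina3n was at 3.37, 2.90 and 3.77. Cyp26b1 was at 2.40 and 3.33 by Fmo2 and F3 and at -1.11 by Gdf10, Pi16 at -3.29, -3.29 and 0.72, and Cilp, a cartilage matrix gene, at -3.42, -4.11 and 0.20. Cyp24a1 was at 70.1 and 120 CPM in the Fmo2 and F3 cells of AD and had no UMI in the 61 Gdf10 cells. Cells with 2 or 3 gate UMIs and cells with 4 or more had ratios of 2.87 and 3.19 for Ccl2, of -2.74 and -2.69 for Col1a1 and of 3.05 and 3.33 for Serpina3n. They differed by more for Il6 (1.97 and 0.82), Cxcl13 (3.25 and 4.52), Cyp26b1 (2.92 and 2.05) and Acta2 (-1.94 and -4.67), and in sign for Mgp (-0.47 and 0.35). The ratio of Acta2 over all gated cells fell under the fold once the called doublets were left out, as given above.

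**Figure D5:**
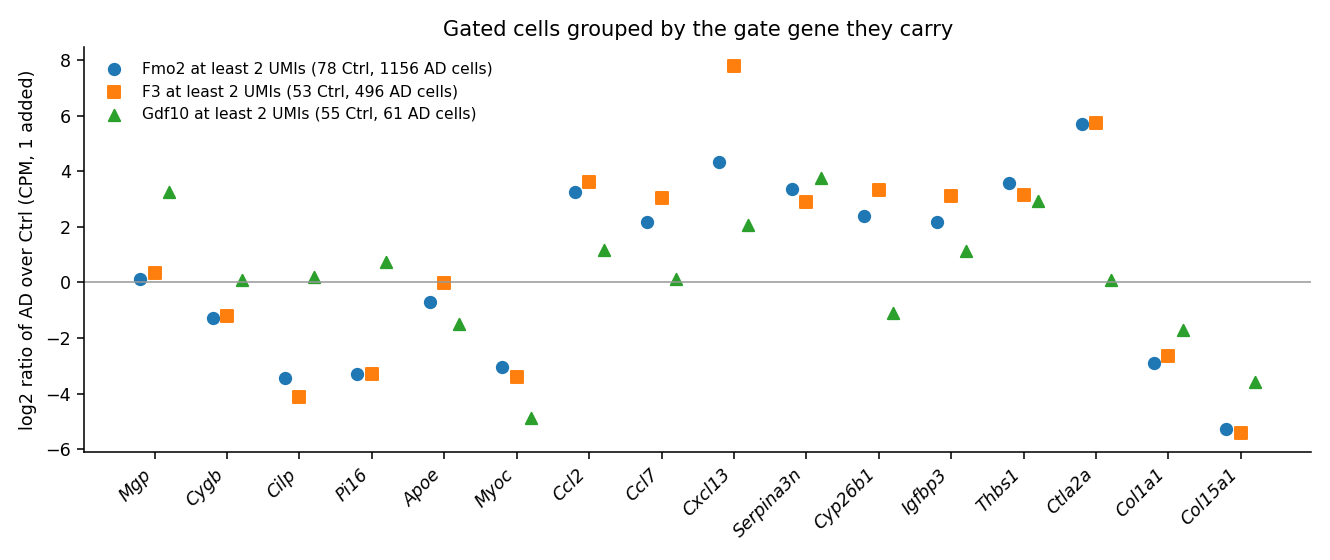
Log2 ratios of AD over Ctrl (1 CPM added) for 16 genes in gated cells with at least 2 UMIs of Fmo2, of F3 or of Gdf10, where a cell can stand in several groups. Gdf10 cells (triangles) were highest for Mgp and lay near 0 or above for Cygb, Cilp, Pi16, Ccl7 and Ctla2a. The Ctla2a point of the Gdf10 cells rests on 5.39 CPM in Ctrl and 5.77 CPM in AD. Its interval of -3.03 to 3.68 leaves its direction open.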

How the data were processed

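For each library, the authors deposited a matrix of counts, the UMIs of 33904 genes in every cell barcode from 10x 3′ libraries, without normalization, with the barcodes and gene names the authors list as text (unit other). Skin was digested with collagenase and DNase and dead cells were removed. Per the labels, Cell Ranger 3.1.0, Seurat 5.0 and mm10 were used, and the matrix header names Cell Ranger 5.0.0. Of the gene identifiers, 32475 are in GENCODE M21 (GRCm38) and 1429 are not, so coordinates carry that limit.

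Cells were gated by the rule given above, with the filter of the study's methods. UMIs were summed over cells, scaled to CPM of all their UMIs, and compared as log2 ratios with 1 CPM added. A gene was measured where either library reached 50 CPM, and a log2 ratio of 1 or -1 counted as past the fold. With 1 library per condition there was no test. Intervals are exact Poisson (levels), Clopper-Pearson (shares) and conditional binomial (ratios, without the added CPM). PCR duplicates are removed by UMIs, and intervals do not cover differences between mice. Named genes were the 12 highest and 12 lowest, list genes past the fold and the most abundant list genes, from 41 lists of known roles. The gate, lists and tests were chosen with earlier results of these data known. Scrublet (scanpy 1.11.5, seed 0) called 395 Ctrl cells (9 gated, 3 of them keratin cells) and 0 AD cells, and doublets were not removed. Why no AD cell was called was not tested, and the 0 is not read as an absence of doublets. Leaving out the called cells therefore changes Ctrl only. Python 3.11.15, numpy 2.4.6, scipy 1.17.1, pandas 2.3.3 and matplotlib 3.10.9 were used, and ratios were checked on simulated counts. One gene counted among those higher in gated cells of both libraries is not reported here.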

Additional observations from a re-analysis of the deposited data

How the results depend on the processing

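With all deposited barcodes, the share of gated cells in AD was 16.5%, and with at least 500 genes and 1000 UMIs it was 18.3%. A gate of at least 3 UMIs gave 1.01% in Ctrl and 14.1% in AD, a gate of at least 1 UMI 2.43% and 22.4%, Fmo2 alone 0.728% and 14.4%, F3 alone 0.614% and 6.17%, and Gdf10 alone 0.518% and 0.758%. After thinning to 3000 UMIs the AD share was 14.2%. Leaving out keratin cells gave 1.23% in Ctrl, and leaving out adipocyte cells as well gave 1.22%. The AD share thus exceeded the Ctrl share under each of these, least so by Gdf10 alone. Counts of genes past the fold stayed within 1.5 times, except with a limit of 10 CPM (726 higher and 1545 lower) or 100 CPM (236 lower). For Mgp, gated over other Pdgfra cells, all gated cells gave 3.27 in Ctrl and 2.17 in AD, the thinned gate 3.57 and 2.85, leaving out keratin and adipocyte cells 3.58 in Ctrl and the mean over cells 2.35 in AD. For Myoc these were 1.92 and 0.61, 2.42 and 1.35, 2.31 in Ctrl and 0.87 in AD. Of 162 named genes past the fold over all gated cells, 102 stayed past it with the gate on Gdf10 alone. This number was 145 with F3 alone, 152 with Fmo2 alone, 150 with at least 1 UMI, and 144 with the thinned gate or without the keratin and adipocyte cells. Signs turned as follows, and causes were not tested. All barcodes turned Krt14 (1.19). The thinned gate turned Col12a1 (-0.12), Slc30a1 (0.60) and Ube2c (0.18). Fmo2 alone turned Rspo3 (1.08) and Vcan (0.052), and F3 alone the same genes (1.16 and 0.37). Gdf10 alone turned Adm (-0.12), Aspn (0.99), Bgn (0.86), Ccnd1 (0.056), Ctla2a (-0.35), Cyp26b1 (-1.37), Igfbp6 (0.83), Inhbb (-2.47), Ltbp4 (0.34), Mfap5 (1.00), Pi16 (0.79) and Slc30a1 (0.42). Leaving out called doublets turned Ccl4 (1.10) and Myh11 (0.50). Leaving out keratin cells turned Cenpf (0.22), Slc30a1 (0.91) and Trbc2 (0.74), and with adipocyte cells also left out these were 0.23, 0.88 and 0.75, and the cell cycle list's median was 0.96. No paired analysis was possible because each condition has 1 library.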
